A study of Mus musculus with 12 samples.

Results

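The endothelial genes of the mouse adrenal gland are described here as a set of 10 genes used as markers of the cells that line blood vessels: Tek, Tie1, Kdr, Flt1, Eng, Pecam1, Cdh5, Esam, Cldn5 and Emcn. They were chosen by name, as probe sets assigned to a single one of these symbols, and make up 10 of the 16244 genes with a probe set of their own on the array. All 10 were found, each with 1 probe set, and all 10 were among the 15900 genes tested. Adrenals came from male C57Bl/6J mice aged 21 weeks, and gene expression was read from Affymetrix Mouse Gene 1.0 ST microarrays. In the ASP+CGP group, mice were exposed to aspartame from before birth, at first through the mother, into adulthood (estimated intake 46 mg/kg body weight). They were also exposed during development to CGP 39551, a competitive blocker of the NMDA-type glutamate receptor. It was given to the mothers at 5 mg/kg until weaning. The ASP group had aspartame (46 mg/kg) without the antagonist, and the CGP group the antagonist (5 mg/kg) without aspartame, each given in the same way. The CON group received neither. Each group was measured as 3 arrays of RNA pooled from its mice, so the standard deviations and p-values below measure the spread between arrays of 1 pool and not the spread between mice.

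Endothelial cells form the inner wall of every vessel, hold together through adherens and tight junctions, and respond to growth factors through receptor tyrosine kinases of the VEGF receptor and Tie families. The adrenal is among the most densely vascularised organs, and steroid and catecholamine hormones leave it through thin-walled, fenestrated sinusoids that run from the outer cortex to the medulla. TIE2, encoded by Tek, is the angiopoietin receptor that keeps the endothelium quiescent, and VEGF receptor 2, encoded by Kdr, carries most of the growth and permeability signal of VEGF-A.

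Stretches of 250 bases before a RefSeq start site (build GRCm38.p6) were matched for 7 of the 10 genes by symbol. ETS factors are a family of transcription factors known to act on endothelial promoters and enhancers. The windows were searched on both strands for the ETS cores CCGGAA and CAGGAA only, and other ETS sites were not searched for. Those of 3 genes are shown because they lie wholly outside the span of their gene and cover both directions of difference in the aspartame pool: Tie1 and Eng, which were lower there, and Cldn5, which was higher. Capitals mark a match to either core as it reads on the gene's strand.
Tie1, chr4:118489850-118490099, minus strand: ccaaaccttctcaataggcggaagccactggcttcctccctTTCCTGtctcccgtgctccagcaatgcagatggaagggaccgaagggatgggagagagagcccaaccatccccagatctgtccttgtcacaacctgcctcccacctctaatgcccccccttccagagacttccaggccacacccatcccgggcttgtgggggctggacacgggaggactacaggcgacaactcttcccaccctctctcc
Eng, chr2:32646345-32646594, plus strand: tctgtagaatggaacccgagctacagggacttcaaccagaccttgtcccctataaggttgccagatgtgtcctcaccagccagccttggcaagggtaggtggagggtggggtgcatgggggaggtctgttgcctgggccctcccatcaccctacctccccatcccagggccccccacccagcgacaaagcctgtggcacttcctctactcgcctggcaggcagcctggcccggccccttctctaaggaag
Cldn5, chr16:18776597-18776846, plus strand: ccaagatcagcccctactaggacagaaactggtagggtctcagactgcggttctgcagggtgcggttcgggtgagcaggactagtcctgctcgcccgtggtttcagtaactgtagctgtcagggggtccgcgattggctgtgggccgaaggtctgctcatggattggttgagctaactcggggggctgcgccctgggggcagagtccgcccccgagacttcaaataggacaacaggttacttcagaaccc
The Tie1 window held 1 CAGGAA core on the opposite strand, at positions -209 to -204 counted from the start site. Those of Eng and Cldn5 held neither CCGGAA nor CAGGAA, which does not exclude other ETS sites. CCGGAA or CAGGAA was found in 4 of the 7 windows (Tek, Kdr, Tie1 and Emcn), against 35.1% of all 32851 promoters of that length. CCGGAA alone was in 12% of all promoters and in the window of Kdr, and CAGGAA alone was in 25.7% of all promoters and in the windows of Tek, Tie1 and Emcn. A SOX core, AACAAT (9.42% of all promoters), was found in the windows of Tek and Emcn, that of Tek overlapping an ETS core, and a TATA box, TATAAA (12.4%), in that of Flt1. A GATA core, AGATAA (9.99%), and a FOX core, TAAACA (12%), were found in none of the 7. A match is a stretch of letters and does not show binding.

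Median log2 signal over all probe sets was 7.84 to 7.94 on the 12 arrays. The middle range of signals was narrower in ASP+CGP than in the other groups (interquartile range 2.20 to 2.29 log2 units on ASP+CGP arrays against 2.58 to 2.62 on CON arrays), and pairs of arrays of one pool correlated at r = 0.989 to 0.995. Adrenal cortex markers were at a mean signal of 12.0 to 12.4 in all groups, with none of 13 under the floor of 6 set for low signal. In ASP 9 of these 13 were lower than in CON by the adjusted p, beside 37.7% of all tested genes. Of the 13, 5 were at least 1.4-fold lower (median log2 difference -0.26), beside 8.13% of all tested genes. Markers of other tissues moved with the groups as well: all 18 neuron markers were at least 1.4-fold higher in ASP than in CON (median log2 difference 1.98). All 22 hepatocyte markers were lower by the adjusted p in both aspartame pools, 20 of them at least 1.4-fold in ASP+CGP (median -1.51) and 18 in ASP (median -1.12), and 16 were at least 1.4-fold higher in CGP (median 0.63). These lists are given again beside the endothelial results they bear on.

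Aspartame alone was set against no treatment first. All 3 ASP arrays were below all 3 CON arrays for 9 of the 10 endothelial genes, beside 43% of all tested genes, and above them for Cldn5, beside 20.6%. A gene is said below to have fallen or risen where limma's moderated test gave an adjusted p under 0.05 (Benjamini-Hochberg over all 15900 genes). It is said to be called where it also differed by at least 1.4-fold, the cut-off in the study's methods. By these rules 9 of the 10 fell and Cldn5 rose, beside 37.7% of all tested genes that fell and 17.6% that rose. Of the 10, 6 were called lower, beside 8.13% of all tested genes. At 1.8-fold, which the study used for its adrenal networks and its table of shared adrenal genes, none of the 10 was called. The median log2 difference of the 10 was -0.50, that of all tested genes was -0.10, and under cyclic loess they were -0.35 and 0.01. In whole-tissue RNA, fewer endothelial cells and less RNA of these genes per cell cannot be told apart. Markers of other cells of the gland fell in ASP as well: 12 of 14 chromaffin markers (median -0.37), 9 of 13 cortex markers (-0.26) and 9 of 11 leukocyte markers (-0.38). Of the chromaffin markers 1 rose, and all 18 neuron markers were called higher (median 1.98). The part of such shifts between tissues in the endothelial differences was not tested.

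**Figure D1:**
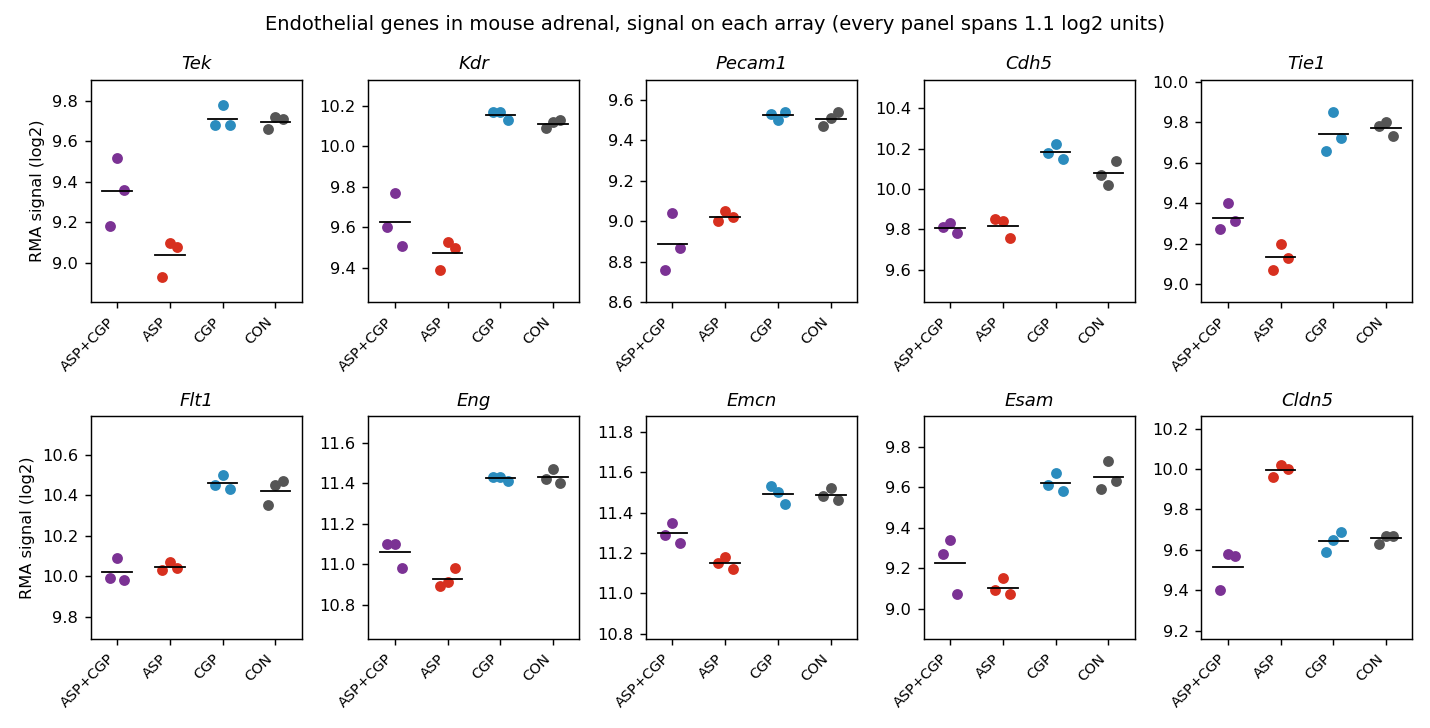
Signal of each endothelial gene on each array: log2 RMA signal on the vertical axis, groups ASP+CGP, ASP, CGP and CON on the horizontal axis, points for single arrays and lines for group means. All ASP and ASP+CGP points lie below all CON points for 9 genes, whereas for Cldn5 the 3 ASP points (9.96 to 10.02) lie above those of every other group.

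The angiopoietin receptor Tek had the largest difference of the 10. Its log2 signal was 8.93, 9.10 and 9.08 on the ASP arrays, against 9.66, 9.72 and 9.71 on the CON arrays. The highest ASP array was thus well under the lowest CON array. Tek was 1.58-fold lower in ASP (log2 difference -0.66 ± 0.08, SE, n = 3 arrays each; limma adjusted p = 5.14e-06). Tie1, the second receptor of that family, which has no well-established ligand of its own and pairs with TIE2, gave 9.07, 9.20 and 9.13 in ASP, against 9.78, 9.80 and 9.73 in CON. The groups did not overlap, and Tie1 was 1.55-fold lower (-0.63 ± 0.06; limma adjusted p = 1.04e-06).

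Both VEGF receptors fell as well. Kdr was at 9.39, 9.53 and 9.5 in ASP, against 10.09, 10.12 and 10.13 in CON, again without overlap, and was 1.56-fold lower (-0.64 ± 0.07; limma adjusted p = 1.44e-06). Flt1, which encodes VEGF receptor 1, a high-affinity receptor that also acts as a decoy for VEGF-A, was at 10.03, 10.07 and 10.04 in ASP, against 10.35, 10.45 and 10.47 in CON. It fell by 0.38 on the log2 scale (SE 0.06; limma adjusted p = 4.65e-05), a 1.30-fold difference that was not called. Endoglin, the co-receptor for BMP9 and TGF-beta encoded by Eng, was at 10.89, 10.91 and 10.98 in ASP, against 11.42, 11.47 and 11.40 in CON. Eng was called 1.42-fold lower (-0.51 ± 0.05; limma adjusted p = 2.05e-06).

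Of the adhesion and junction genes, 3 fell and 1 rose. Pecam1, an immunoglobulin-family adhesion protein at endothelial contacts, was at 9.0, 9.05 and 9.02 in ASP, against 9.47, 9.51 and 9.54 in CON. Its 1.41-fold difference (-0.49 ± 0.07; limma adjusted p = 1.83e-05) lay at the 1.4-fold threshold, and the call was lost when ASP replicate 1 or CON replicate 3 was left out, with a log2 difference between -0.51 and -0.47 over the 6 such fits. Esam, an adhesion molecule of endothelial tight junctions and platelets, was at 9.09, 9.15 and 9.07 in ASP, against 9.59, 9.73 and 9.63 in CON, 1.46-fold lower (-0.55 ± 0.07; limma adjusted p = 1.11e-05). Cdh5, which encodes VE-cadherin, the main adherens junction cadherin of endothelium, moved least of the 9: 9.85, 9.84 and 9.76 in ASP, against 10.07, 10.02 and 10.14 in CON. It fell by 0.26 (SE 0.05; limma adjusted p = 0.000974) without reaching 1.4-fold. Emcn, the endothelial sialomucin endomucin, was at 11.15, 11.18 and 11.12 in ASP, against 11.48, 11.52 and 11.46 in CON, and fell by 0.34 (SE 0.05; limma adjusted p = 8.12e-05).

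Cldn5, a tight junction claudin best known from the blood-brain barrier, went the other way. Its 3 ASP arrays lay between 9.96 and 10.02 (mean 9.99), against 9.63, 9.67 and 9.67 in CON, so that every ASP array was above every array of the other 3 groups. Cldn5 rose 1.26-fold (0.34 ± 0.06; limma adjusted p = 0.000247), under the 1.4-fold threshold. Over the 12 arrays its Pearson correlation with the mean of the other 9 genes was -0.401, whereas that of each other gene was 0.911 to 0.986. These are descriptions over 12 arrays that share 4 pools.

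Genes of similar signal fell too, by less. Among all tested genes with a mean CON signal of 9 to 10, the range that holds Tek, Tie1, Pecam1, Esam and Cldn5, the median difference of ASP from CON was -0.19 and 13% were called lower. At 10 to 11, the range of Kdr, Cdh5 and Flt1, these values were -0.19 and 13.1%, and at 11 to 12, the range of Eng and Emcn, -0.17 and 11.2%. When the arrays were made to agree at every signal level by cyclic loess, or when each array's trend with signal was subtracted, the median of all genes was 0.01 and 0.02 in place of -0.10, and the direction of all 10 endothelial genes held. Calls did not: Tek alone stayed called lower (-0.49 under both), Cldn5 was called higher (0.51 under both), Kdr (-0.47) and Tie1 (-0.46 and -0.45) fell just short of 1.4-fold, and Cdh5 (-0.09) was no longer past the adjusted p.

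**Figure D2:**
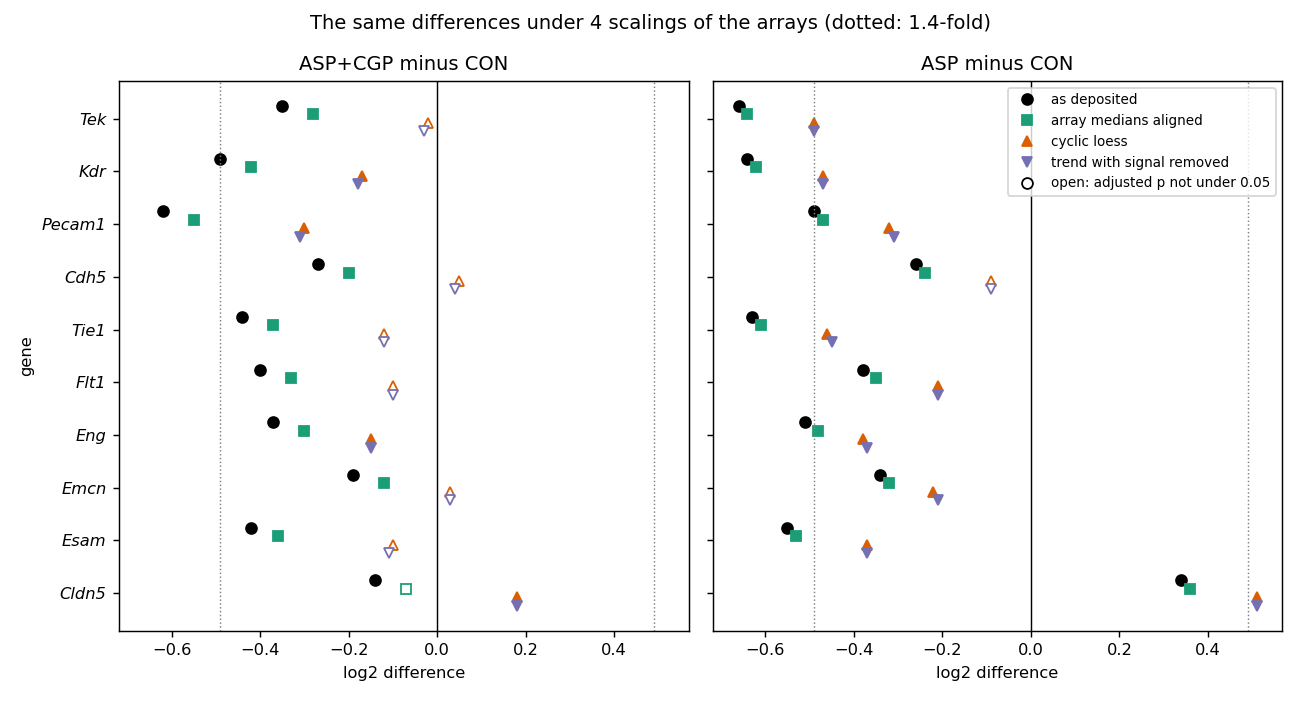
Log2 difference of each endothelial gene from CON (horizontal axis) in ASP+CGP and in ASP under 4 scalings of the arrays, with dotted lines at 1.4-fold and open symbols where the adjusted p was not under 0.05. In ASP the 9 lower genes stay left of zero and Cldn5 right of it under all 4, whereas in ASP+CGP the points of Cdh5, Emcn and Cldn5 lie right of zero under cyclic loess and trend removal.

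The antagonist alone left no detectable difference. None of the 10 genes differed between CGP and CON (limma adjusted p = 0.589 to 0.992, none with an unadjusted p under 0.05), beside 0.0189% of all tested genes called lower and 1.62% called higher, and 0.208% that fell and 2.81% that rose. Log2 differences ran from -0.03 for Tie1 and Esam to 0.11 for Cdh5, and the 95% intervals of all 10 lay between -0.18 and 0.22. Tek was at 9.68, 9.78 and 9.68 in CGP, against 9.66, 9.72 and 9.71 in CON, and Kdr was at 10.17, 10.17 and 10.13 in CGP, against 10.09, 10.12 and 10.13 in CON. The groups overlapped for every gene but Cdh5 (all 3 arrays were below CON for 6.35% of all tested genes and above it for 10.1%), which was at 10.18, 10.22 and 10.15 in CGP, against 10.07, 10.02 and 10.14 in CON (0.11 ± 0.05; limma adjusted p = 0.589).

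In the pool given both treatments, all 10 genes had lower signal than CON on every array and fell by the adjusted p, beside 50.4% of all tested genes that fell, 22.3% that rose, 52.5% with all arrays below CON and 22.8% with all arrays above it, although Cdh5, Emcn and Cldn5 turned to positive differences under cyclic loess and trend removal. Only Pecam1 and Kdr were called lower, 2 of 10 beside 8.32% of all tested genes, and none was called higher beside 6.09%. The median difference was -0.39, against -0.17 for all tested genes, and under cyclic loess it was -0.10, against -0.01. For all genes with CON signal of 9 to 10, the median was -0.34 and 16.2% were called lower, and for those at 10 to 11, -0.33 and 13.9%.

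Pecam1 had the largest difference in this pool. It was at 8.76, 9.04 and 8.87 in ASP+CGP, against 9.47, 9.51 and 9.54 in CON, 1.54-fold lower (-0.62 ± 0.07; limma adjusted p = 7.77e-06). Kdr was at 9.60, 9.77 and 9.51 in ASP+CGP, against 10.09, 10.12 and 10.13 in CON, and its 1.4-fold difference (-0.49 ± 0.07; limma adjusted p = 3.96e-05) was no longer called without ASP+CGP replicate 1, ASP+CGP replicate 3 or CON replicate 3. Tek was spread most widely among the ASP+CGP arrays, at 9.18, 9.52 and 9.36, against 9.66, 9.72 and 9.71 in CON. It fell by 0.35 (SE 0.08; limma adjusted p = 0.00139). All 10 genes were highest on replicate 2 of the 3 ASP+CGP arrays.

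The remaining receptors and junction genes fell by less than 1.4-fold in ASP+CGP. Tie1 was at 9.27, 9.40 and 9.31 in ASP+CGP, against 9.78, 9.80 and 9.73 in CON (-0.44 ± 0.06; limma adjusted p = 5.64e-05). Flt1 was at 9.99, 10.09 and 9.98 in ASP+CGP, against 10.35, 10.45 and 10.47 in CON (-0.40 ± 0.06; limma adjusted p = 4.16e-05). Neither receptor overlapped its CON arrays. Eng was at 11.10, 11.10 and 10.98 in ASP+CGP, against 11.42, 11.47 and 11.40 in CON (-0.37 ± 0.05), and Esam was at 9.27, 9.34 and 9.07 in ASP+CGP, against 9.59, 9.73 and 9.63 in CON (-0.42 ± 0.07). Cdh5 was at 9.81, 9.83 and 9.78 in ASP+CGP, against 10.07, 10.02 and 10.14 in CON, and Emcn at 11.29, 11.35 and 11.25 in ASP+CGP, against 11.48, 11.52 and 11.46 in CON. The smallest differences were those of Cdh5 at -0.27, Emcn at -0.19 and Cldn5 at -0.14 (limma adjusted p = 0.047, not under 0.05 with array medians aligned), and these are the genes whose sign turned under cyclic loess (0.05, 0.03 and 0.18) and under trend removal (0.04, 0.03 and 0.18). Under both, Pecam1 (-0.30 and -0.31), Kdr (-0.17 and -0.18) and Eng (-0.15 under both) were the 3 that still fell, Cldn5 rose and none was called.

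**Figure D3:**
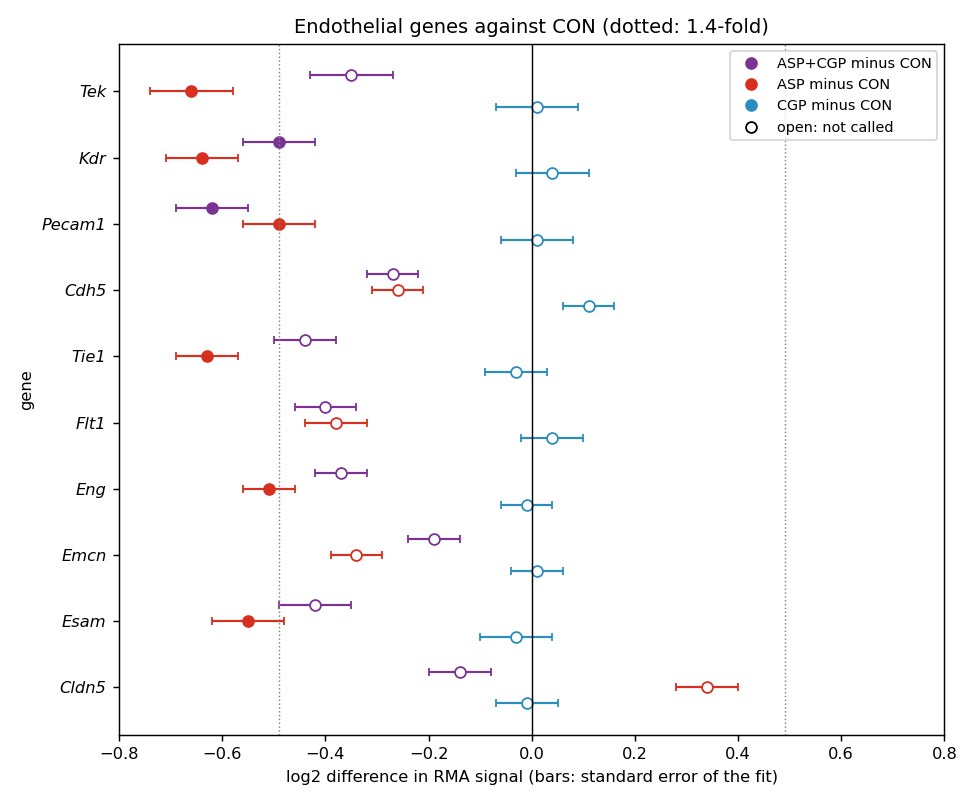
Log2 difference of each endothelial gene from CON (horizontal axis; points with the standard error of the fit) for ASP+CGP, ASP and CGP, filled where called and with dotted lines at 1.4-fold. CGP points lie between -0.03 and 0.11, ASP points between -0.66 and -0.26 except Cldn5 at 0.34, and ASP+CGP points between -0.62 and -0.14, of which those of Cdh5, Emcn and Cldn5 change sign under cyclic loess and trend removal.

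The pool with both treatments was next set against aspartame alone, which gives the antagonist's difference among aspartame-treated mice. None of the 10 was called in either direction, beside 13.3% of all tested genes called lower and 6.55% called higher. By the adjusted p, 4 genes had risen relative to ASP, beside 30% of all tested genes that rose and 33.1% that fell: Tek by 0.32 ± 0.08 (limma adjusted p = 0.00288), Tie1 by 0.19 ± 0.06 (0.0177), Emcn by 0.15 ± 0.05 (0.0228) and Eng by 0.13 ± 0.05 (0.0456). Over 6 fits that each left out 1 array, Tek passed in 6, Tie1 and Emcn in 4 each and Eng in 2. Cldn5 was lower, at 9.40, 9.58 and 9.57 in ASP+CGP, against 9.96 to 10.02 in ASP, a 1.39-fold difference (-0.48 ± 0.06; limma adjusted p = 1.05e-05). Kdr, Pecam1, Cdh5, Flt1 and Esam did not pass, with differences of -0.13 to 0.15, but under cyclic loess 4 of these passed as higher: Kdr (0.30), Esam (0.27), Cdh5 (0.14) and Flt1 (0.11). The arrays of the 2 pools overlapped for these 5, and of the 5 that passed Cldn5 had all ASP+CGP arrays below the ASP ones, beside 34.6% of all tested genes, and the other 4 all above, beside 30.7%.

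Within antagonist-treated mice, the aspartame difference (ASP+CGP against CGP) ran from -0.63 for Pecam1 to -0.13 for Cldn5. By the adjusted p, 9 genes fell, beside 51.8% of all tested genes that fell and 23.8% that rose, and Cldn5 did not pass (0.0683). For all 10 the ASP+CGP arrays were below those of CGP, beside 52.2% of all tested genes below and 23.1% above. Pecam1 was at 8.76, 9.04 and 8.87 in ASP+CGP, against 9.53, 9.5 and 9.54 in CGP, and was called 1.55-fold lower (limma adjusted p = 3.78e-06). Kdr was at 9.60, 9.77 and 9.51 in ASP+CGP, against 10.17, 10.17 and 10.13 in CGP, and was called 1.44-fold lower (limma adjusted p = 1.58e-05), these 2 of 10 beside 11% of all tested genes called lower and 8.57% called higher. Under cyclic loess and trend removal 4 genes still fell and Cldn5 rose, the median being -0.07 and -0.08 in place of -0.39. Neither Pecam1 nor Kdr was called, and the differences of Emcn and Cldn5 turned positive (0.02 and 0.21 under cyclic loess, 0.02 and 0.20 under trend removal).

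Whether the aspartame difference itself depended on the antagonist was tested as the interaction, the difference of ASP+CGP from CGP minus that of ASP from CON. None of the 10 reached 1.4-fold, beside 15.5% of all tested genes called lower and 9.02% called higher. Tek and Cldn5 passed the adjusted p, beside 29.5% of all tested genes that passed it with a negative and 21.9% with a positive interaction. For Tek the interaction was 0.31 ± 0.11 (limma adjusted p = 0.032), its aspartame difference being -0.36 in antagonist-treated and -0.66 in other mice. For Cldn5 it was -0.46 ± 0.08 (limma adjusted p = 0.000494), the aspartame difference being -0.13 with the antagonist and 0.34 without it. For the other 8 the interaction ran from -0.14 for Pecam1 to 0.22 for Tie1 (limma adjusted p = 0.0564 for Tie1), and the 95% intervals of these 8 lay between -0.34 and 0.41. Which genes passed depended on the scaling: Tie1, Eng and Emcn passed as well with array medians aligned, and Kdr (0.27), Tie1 (0.38), Eng (0.24), Emcn (0.24) and Esam (0.31) passed beside Tek (0.46) and Cldn5 (-0.30) under cyclic loess, where the median of the 10 was 0.24 in place of 0.13. The same 7 genes passed under trend removal.

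Ordered by mean signal, ASP+CGP and ASP stood below CGP and CON for each of the 9 genes other than Cldn5, and CGP and CON did not pass the test against each other for any of them. ASP was the lowest group for Tek, Kdr, Tie1, Eng, Emcn and Esam, and ASP+CGP the lowest for Pecam1, Cdh5 and Flt1, but of these 9 genes ASP+CGP and ASP were told apart by the adjusted p for Tek, Tie1, Emcn and Eng on the deposited scale. With array medians aligned Kdr and Esam passed too, and under cyclic loess and trend removal all but Pecam1 passed as higher in ASP+CGP, Cdh5 and Flt1 included. For Cldn5 the order was ASP, CON, CGP and ASP+CGP from high to low, with ASP apart from the next group and the neighbours below it not told apart.

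Other pan-endothelial markers were counted to see how far the 10 genes stood for the cell type. Beside the counts of this and the following lists stand the shares of all tested genes. In ASP 37.7% fell, 8.13% were called lower and 9.81% were called higher. In ASP+CGP 50.4% fell, 8.32% were called lower and 6.09% were called higher. A list near these shares is no result about the list. Of 36 tested, 31 fell and 16 were called lower in ASP against CON, with none called higher and a median of -0.44. Procr, the endothelial protein C receptor, was 1.96-fold lower (-0.97 ± 0.06; limma adjusted p = 2.47e-09), and Exoc3l2 (-0.76), Rasip1 (-0.71), a Ras-interacting protein needed for vessel lumens, and Palmd (-0.65) followed. The lysosphingolipid receptor S1pr1 was the only one of the 36 that rose (0.38 ± 0.06; limma adjusted p = 7.03e-05), and is named, like Vwf, after its value was seen. Vwf, the gene of von Willebrand factor, was at 7.93 in ASP and 7.94 in CON. In ASP+CGP against CON 25 of the 36 fell and 4 were called lower, near the 8.32% of all genes, with a median of -0.25: Ptprb (-0.61), a phosphatase that acts on TIE2, Procr (-0.58), Rasip1 (-0.58) and Robo4 (-0.49). Robo4 lost its call with array medians aligned (-0.42) and without CON replicate 2 (-0.46), CON replicate 3 or ASP+CGP replicate 3 (-0.47 each). Under cyclic loess the counts called were 3 lower and 1 higher in ASP (median -0.29) and none in ASP+CGP (median 0.00).

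**Figure D4:**
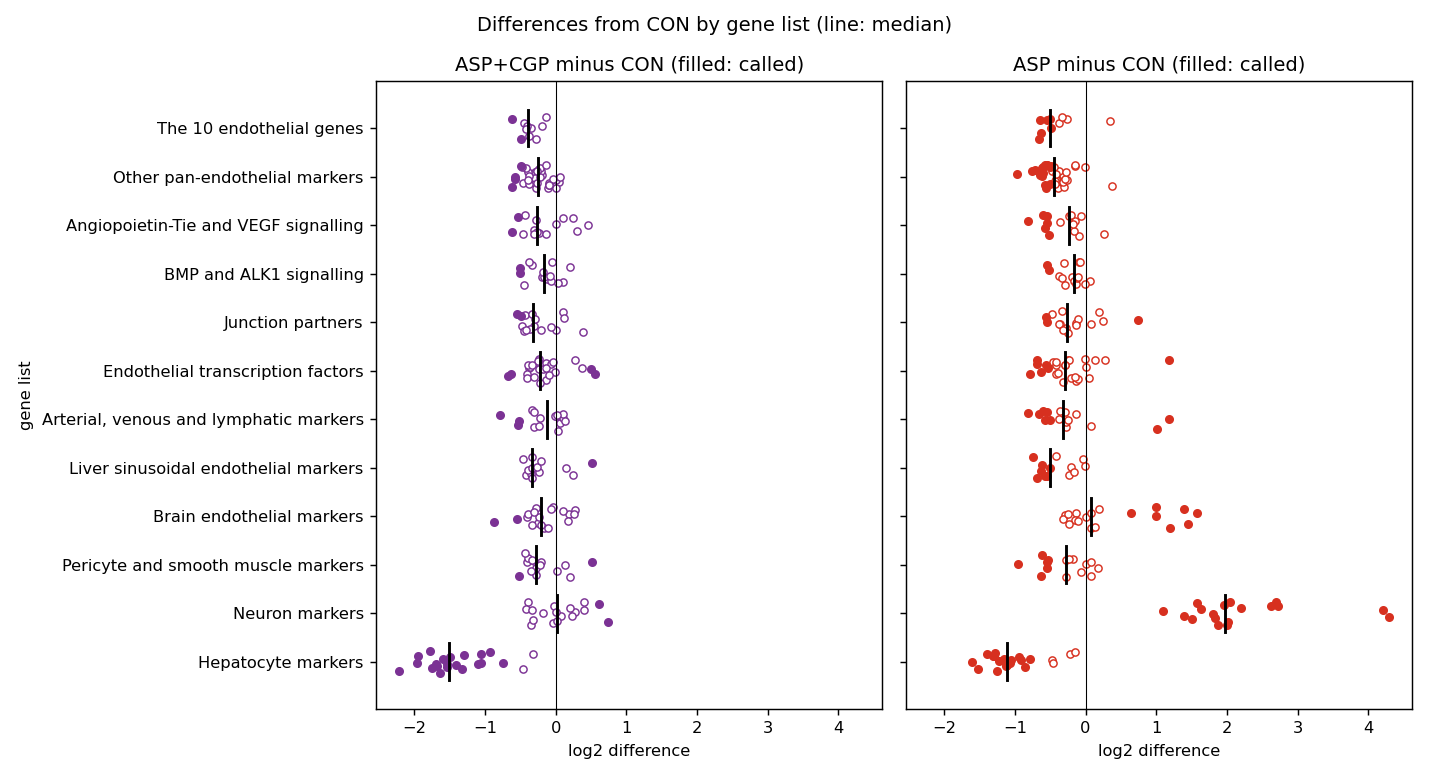
Log2 difference from CON (horizontal axis) of every tested gene of 12 lists in ASP+CGP and in ASP, each point a gene, filled where called, with a line at the median. In ASP the endothelial lists other than the brain one have medians of -0.50 to -0.17, the brain endothelial list reaches up to 1.58 and the neuron list has its median at 1.98, whereas in ASP+CGP the neuron median is 0.02 and the hepatocyte median -1.51; the medians of several endothelial lists in ASP+CGP are near zero or positive under cyclic loess.

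Ligands and partners of the Tie and VEGF receptors were counted in the same way. Of 15 tested, 10 fell and 6 were called lower in ASP against CON, none was called higher, and the median was -0.23. Flt4, the lymphatic VEGF receptor 3, was 1.76-fold lower (-0.81 ± 0.07; limma adjusted p = 1.38e-07), its ligand Vegfd was 1.51-fold lower (-0.60), the extracellular matrix protein Svep1 was 1.49-fold lower (-0.58) and Vegfa, the main ligand of both VEGF receptors, was 1.45-fold lower (-0.54 ± 0.05; limma adjusted p = 5.35e-07). In ASP+CGP against CON 9 fell and 2 were called lower, Ptprb (-0.61) and Flt4 (-0.53), with a median of -0.26 that was 0.02 under cyclic loess. Angpt4, an angiopoietin, rose 1.38-fold there (0.46 ± 0.11; limma adjusted p = 0.00163) and Vegfa fell by 0.46.

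In the BMP and ALK1 pathway, in which endoglin is a co-receptor, 8 of 15 genes fell in ASP and 2 were called lower: Id3 (-0.54 ± 0.07; limma adjusted p = 8.21e-06), a target of BMP signalling, and the receptor Tgfbr2 (-0.52 ± 0.07; limma adjusted p = 1.35e-05). The list's median was -0.17. In ASP+CGP, 8 fell, near the share of all tested genes that fell, the median was that of all genes (-0.17; 0.04 under cyclic loess), and 2 were called lower, the receptor Bmpr2 and the signal transducer Smad5 (-0.51 each). Junction partners gave 2 lower calls and 1 higher among 16 in ASP: Ctnna1 (-0.56), the alpha-catenin that links cadherins to actin, F11r (-0.55), a junctional adhesion molecule, and Gja1 (0.74 ± 0.06; limma adjusted p = 6.12e-08), the gap junction gene connexin 43, which is also an astrocyte marker. In ASP+CGP, Tjp1 (-0.55) and Ctnnd1 (-0.49) were the lower calls of that list and Gja1 was at -0.43. With array medians aligned Tjp1 (-0.48) and Ctnnd1 (-0.42) lost their calls. Ctnnd1 also lost its call without CON replicate 2, ASP+CGP replicate 1 (-0.45 each) or ASP+CGP replicate 3 (-0.46).

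Among transcription factors known from endothelium, the higher calls were near or under the shares of all tested genes called higher. Of 26 tested, 16 fell and 6 were called lower in ASP, led by Gata2 (-0.78 ± 0.06; limma adjusted p = 5.22e-08), Etv6 (-0.69) and Hhex (-0.69), and 1 was called higher, the Notch target Hey1 (1.18 ± 0.07; limma adjusted p = 5e-09). In ASP+CGP 2 were called lower, Etv6 (-0.67) and Ets2 (-0.63), and 2 higher, Foxf1 (0.56) and Tal1 (0.50). Foxf1 was at 0.17 and not called when all its probe sets were averaged. Tal1 lost its call without CON replicate 2 (0.44) or ASP+CGP replicate 3 (0.39). Among 16 arterial, venous and lymphatic markers, 6 were called lower in ASP, among them Flt4 (-0.81) and Prox1 (-0.66), the regulator of lymphatic identity, and 2 higher, Hey1 (1.18) and Reln (1.01). Hey1 is counted in both lists. In ASP+CGP against ASP, Hey1 (-1.19) and Reln (-0.99) were called lower, as all 18 neuron markers were. The part of brain RNA in these calls was not tested. In ASP+CGP the lower calls were Prox1 (-0.79), Flt4 (-0.53) and Efnb2 (-0.52), with none higher. Under cyclic loess the lower calls in ASP were 1 for the Tie and VEGF list, 0 for the BMP list, 0 for junction partners, 3 for transcription factors and 2 for arterial, venous and lymphatic markers, and in ASP+CGP only the last list kept any, with 1.

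Markers of brain endothelium showed both directions. Of 19 brain endothelial markers, 7 were called higher and none lower in ASP against CON, beside 9.81% of all tested genes called higher. Another 5 fell without reaching 1.4-fold, and the median of the 19 was 0.08. The 7 were Itm2a (2.98-fold, 1.58 ± 0.07; limma adjusted p = 1.33e-10), the organic anion transporter Slc22a8 (1.45), the thyroid hormone transporter Slco1c1 (1.4), Slco1a4 (1.19), Mfsd2a (1.0), the lipid transporter of the blood-brain barrier, Spock2 (0.99) and the glucose transporter Slc2a1 (0.65). In ASP+CGP against CON none was called higher and 2 were called lower, Mfsd2a (-0.87) and Slco1a4 (-0.55), and in ASP+CGP against ASP 7 were called lower, led by Mfsd2a (-1.86 ± 0.06; limma adjusted p = 1.16e-12) and Slco1a4 (-1.74). Mean signal of the 19 was 8.11 to 8.15 on ASP+CGP arrays, 8.63 to 8.74 on ASP arrays and 8.27 to 8.33 on CON arrays, with 3, 0 and 3 of them under the floor of 6. Slco1a4 was under 6 in both groups of its lower call (5.02 in ASP+CGP, 5.57 in CON). That call was lost without ASP+CGP replicate 1 (-0.45) or with array medians aligned (-0.48). Slco1c1 was under 6 in all groups but ASP (6.94), so it was tested only because of its ASP signal. Under cyclic loess 7 of the 19 were called higher in ASP and none lower.

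Neuron, oligodendrocyte and astrocyte markers were higher in ASP, as Cldn5 and these 7 brain endothelial markers were. In ASP against CON all 18 neuron markers, all 13 oligodendrocyte markers and 13 of 14 astrocyte markers were called higher, with medians of 1.98, 1.94 and 2.18. Mean neuron marker signal was 7.94 to 7.99 on ASP+CGP arrays, 10.08 to 10.13 on ASP arrays and 7.88 to 7.92 on CON arrays, with 1, 0 and 1 of the 18 under 6. Of the 13 oligodendrocyte markers 3, 0 and 4 were under 6 in these groups, and of the 14 astrocyte markers 1, 0 and 2. A marker under 6 in every other group was tested only because of its ASP signal. The part of the neuron and glial markers in the Cldn5 result was not tested.

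Liver sinusoidal endothelial markers fell with the other endothelial genes. Of 13 tested, 11 fell and 7 were called lower in ASP (median -0.50; 4 called lower under cyclic loess), led by the mannose receptor Mrc1 (-0.75 ± 0.12; limma adjusted p = 7.37e-05), the scavenger receptor Stab1 (-0.68), Dnase1l3 (-0.63) and Clec4g (-0.62). In ASP+CGP 10 fell and none was called lower (median -0.33). Wnt9b was called higher (0.52), a call lost without ASP+CGP replicate 1 (0.48). Hepatocyte markers had a mean signal of 9.28 to 9.40 on ASP+CGP arrays, 9.68 to 9.72 on ASP arrays, 11.32 to 11.39 on CGP arrays and 10.69 to 10.74 on CON arrays, with none of the 22 under 6 in any group. In CGP the hepatocyte marker signal was above that of CON. None of the 10 endothelial genes passed the adjusted p in that comparison. Of the 13 liver sinusoidal endothelial markers, 2 rose in CGP, beside 2.81% of all tested genes. None of the 13 fell or was called there, and their median was 0.07, with differences from -0.08 to 0.48. The part of liver or brain RNA in the endothelial differences was not tested.

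Pericyte and smooth muscle markers, from the cells that wrap vessels, fell in part. In ASP 10 of 15 fell and 6 were called lower, with a median of -0.27: Ndufa4l2 (-0.96 ± 0.07; limma adjusted p = 2.67e-08), Tagln (-0.63), Anpep (-0.61) and Des (-0.55) led. In ASP+CGP 11 fell and 1 was called lower, the pericyte growth factor receptor Pdgfrb (-0.52), and 1 was called higher, Lmod1 (0.51). Pdgfrb lost its call with array medians aligned (-0.45). Lmod1 lost its call without CON replicate 1 or ASP+CGP replicate 1 (0.40 each), and did not pass the adjusted p under cyclic loess (0.39) or trend removal (0.34). Under cyclic loess 1 was called lower in ASP and none in ASP+CGP.

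Genes outside the set whose signal followed the mean of the 10 most closely over the 12 arrays were Nfe2l2, Aifm1 and Htra3 (Pearson r = 0.995 each), Stx17 and Nfil3 (0.994 each) and Pbrm1 (0.993). Their differences in ASP against CON were -0.36 for Nfe2l2, the regulator of the antioxidant response, -0.41 for Aifm1, -0.54 for Htra3, -0.55 for Stx17, -0.91 for Nfil3 and -0.57 for Pbrm1. The 12 arrays share 4 pools, so these correlations rest mainly on the differences between pools and are given as a description.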

How the data were processed

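Pooled adrenal RNA of 4 groups was hybridised in triplicate to Mouse Gene 1.0 ST arrays. The authors deposited log2 signals per probe set, which they normalised by RMA in the Partek software. No genome build is given for the probe sets. Of 26533 probe sets, 17710 carried 1 gene symbol in the platform annotation, 1077 several and 7746 none. The probe set with the highest mean stood for each gene, and of 16244 genes 344 whose group means were all below 6 were dropped. A mean per group was fitted over all 12 arrays in limma 3.58.1 (R 4.3.3) with eBayes and Benjamini-Hochberg adjustment over 15900 genes per contrast. Called means adjusted p under 0.05 and at least 1.4-fold. The number of arrays limits the precision. From each list up to 4 genes were named, called ones first and then by size, and the 6 genes with the highest Pearson r to the members' mean. The 7 brain endothelial calls, S1pr1 and Vwf were named beyond this rule. Members and lists were chosen with earlier results of these data known. Alternatives were the floor on dim genes, scaling, moderation, arrays fitted, array weights, replicate number as a block, fold minimum, adjustment, probe set choice and leaving out each array. Scripts were tested on simulated data. Promoter windows came from RefSeq, GRCm38.p6. Signals of different probe sets were not compared.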

Additional observations from a re-analysis of the deposited data

Results flagged for a closer look

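On the deposited scale the aspartame difference depended on the antagonist for Tek and for Cldn5, by limma's interaction test, and under cyclic loess Kdr, Tie1, Eng, Emcn and Esam passed as well (adjusted p = 0.000878 to 0.00759), Tek being at 0.46 and Cldn5 at -0.30. For Tek the log2 difference was 0.31 less negative in antagonist-treated mice (SE 0.11; adjusted p = 0.032). Over 12 fits that each left out 1 array it ran from 0.23 to 0.39 with adjusted p from 0.00576 to 0.0834, and 5 of the 12 passed. For Cldn5 the interaction was -0.46 (SE 0.08; adjusted p = 0.000494), and all 3 ASP arrays were above the arrays of the other groups. Of 19 brain endothelial markers 7 had an interaction called lower, and neuron and oligodendrocyte markers were lower in ASP+CGP than in ASP, as Cldn5 was. Their part in it was not tested.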

How the results depend on the processing

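The alternatives kept the call of a member on its side of the threshold in 1114 comparisons of a gene and a setting, made it stronger in 34, weaker in 38 and turned its sign in 14. The sign also changed in 25 others in which neither value passed the adjusted p. With array medians aligned, 4 members were called in ASP against CON, and 1 each (Pecam1) in ASP+CGP against CON and against CGP. Under cyclic loess, as under trend removal, 2 were called in ASP against CON, 0 in ASP+CGP against CON and 0 in ASP+CGP against CGP. The 14 turned values are, under cyclic loess and then trend removal, 0.05 and 0.04 for Cdh5, 0.03 and 0.03 for Emcn and 0.18 and 0.18 for Cldn5 in ASP+CGP against CON, 0.14 and 0.13 for Cdh5 and 0.11 and 0.10 for Flt1 in ASP+CGP against ASP, and 0.02 and 0.02 for Emcn and 0.21 and 0.20 for Cldn5 in ASP+CGP against CGP. With no fold minimum 10 were called in ASP against CON, 10 in ASP+CGP against CON, 5 in ASP+CGP against ASP, 9 in ASP+CGP against CGP and 2 in the interaction, and with 1.8-fold 0 in ASP against CON, in ASP+CGP against CON and in ASP+CGP against CGP. In CGP against CON the count was 0 under all alternatives. Leaving out 1 array at a time gave 5 to 6 calls in ASP against CON, 0 to 0 in CGP against CON, 1 to 2 in ASP+CGP against CON, 0 to 1 in ASP+CGP against ASP, 1 to 2 in ASP+CGP against CGP and 0 to 1 in the interaction. The gained call was that of Cldn5, without ASP replicate 1, ASP+CGP replicate 2 or ASP+CGP replicate 3 against ASP, and without CGP replicate 1, ASP+CGP replicate 2 or ASP+CGP replicate 3 in the interaction. Lower calls among the other pan-endothelial markers in ASP+CGP ran from 3 to 6 over these fits. Of all called genes in ASP against CON, 54.7% were higher, against 80.1% under cyclic loess and 81.1% under trend removal, and in ASP+CGP against CON 42.3%, against 58.1%, 55.4% and, with medians aligned, 69.8%. The cause of these shifts was not tested.

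With the replicate number as a block the counts were 6, 0, 2, 0, 2 and 0 in ASP against CON, CGP against CON, ASP+CGP against CON, ASP+CGP against ASP, ASP+CGP against CGP and the interaction, as without it. By the adjusted p alone, Kdr passed against ASP (0.0422), Cldn5 against CGP (0.0366) and Tie1 in the interaction (0.0205) with the block. The sample labels do not say whether the numbers pair the arrays, and the values do not settle it. Deviations of same-numbered arrays correlated at -0.15 to 0.38 over 18 pairs (median 0.08, 8 of them over 0.1). Those of differently numbered arrays correlated at -0.39 to 0.28 over 36 pairs (median -0.07, 9 over 0.1), and 7 of 12 arrays correlated best with their own number.

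The design limits what these values show. With 1 RNA pool per group, a difference between pools cannot be told apart from a difference in dissection or handling of that pool, and the p-values do not cover the variation between mice. Each gene rests on 1 probe set. The members' median in ASP+CGP against CON (-0.39) stands beside medians of -0.34 and -0.33 for all genes with CON signal of 9 to 10 and 10 to 11.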

Other observations

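Lists of other cells the tissue could hold were counted in the same way, beside 8.13% of all tested genes called lower and 37.7% that fell in ASP against CON. In ASP against CON 4 of 11 leukocyte markers were called lower (9 fell, median -0.38), 2 of 7 red cell and platelet markers (5 fell, median -0.32), and 5 of 13 adrenal cortex markers (9 fell, median -0.26), with none called higher. Fat markers were near the shares of all genes, with 1 of 10 called lower (3 fell, median -0.10). Of 14 chromaffin markers 12 fell, 4 were called lower and 1 higher (median -0.37). Among 16 immediate early and shear-responsive genes all 16 fell and 8 were called lower (median -0.47). In ASP+CGP against CON, where 8.32% of all tested genes were called lower, the lower calls were 0 of 11 leukocyte, 1 of 7 red cell and platelet, 0 of 13 adrenal cortex, 1 of 10 fat, 1 of 14 chromaffin and 5 of 16 immediate early genes, with 1 red cell and platelet marker called higher. Of 13 oligodendrocyte markers none, and of 14 astrocyte markers 1 higher and 2 lower, were called there.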
